A study of Homo sapiens with 4 samples.

Results

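The SR splicing factor genes taken here are 10 human genes, SRSF1 to SRSF9 and SRSF11, and are called the family below. SRSF10 and SRSF12 were counted apart, with other splicing genes. The mRNAs of the 10 genes were searched for N6-methyladenosine (m6A) in a thyroid cancer cell line. A listed m6A site was assigned to a gene when it lay in an exon or intron of that gene on the same strand in GENCODE release 44. Of the 18789 sites in the list, 3 fell in these genes, 1 each in SRSF2, SRSF4 and SRSF9. SRSF1, SRSF3, SRSF5, SRSF6, SRSF7, SRSF8 and SRSF11 held no listed site.

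The sites came from miCLIP2 on polyadenylated RNA of untreated, wild-type C643, an established cell line of anaplastic thyroid carcinoma. In miCLIP2 ultraviolet light fixes a rabbit antibody against m6A to fragmented RNA, and reverse transcription stops next to the crosslink. There was 1 group with 3 biological replicates in 4 libraries, since replicate 1 had 2 technical libraries, and peaks at adenosines were classified by the machine learning model m6Aboost, which gives each a prediction score between 0 and 1. The list pools the replicates and gives neither read counts nor rejected peaks, so the depth behind a site, the spread between replicates and the RNA level of each gene are unknown here, and no control sample was analysed.

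SR proteins bind pre-mRNA through RNA recognition motifs and contact other splicing factors through a domain rich in arginine and serine. They help to define exons, and several of them shuttle to the cytoplasm and take part in mRNA export and translation. Many SR genes limit their own expression by including a poison exon, an alternative exon that carries an early stop codon and sends the transcript to nonsense-mediated decay (NMD), or by keeping an intron. The m6A mark is written mainly by the METTL3 and METTL14 methyltransferase at DRACH motifs, where D is A, G or T, R is A or G, and H is A, C or T, and the A in the middle is methylated.

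The 21 nt around each of the 3 sites are shown because they are the whole m6A record of the family in this list. Sequences are from the GRCh38 reference, 5′ to 3′ on the strand of the gene, with T for U. Capitals mark the pentamer whose middle A is the site.
SRSF2, coding exon 1, chr17:76736861-76736881, minus strand: cgccccccGGACTcacaccac
SRSF4, 3' UTR, chr1:29147889-29147909, minus strand: taggaaatAAACTgtagagtt
SRSF9, coding exon 2, chr12:120465701-120465721, minus strand: gttccccaGGACTtatggagg

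All 3 sites lay at DRACH, as did 88.7% of the whole list. The SRSF2 and SRSF9 sites shared GGACT, the pentamer with the most sites in the list (4072), and the SRSF4 site was at AAACT (731 sites in the list). The windows differed in base composition, with a GC content of 76.2% in SRSF2, 28.6% in SRSF4 and 57.1% in SRSF9. They were not copies of one family sequence, since the closest window in the transcript of any other member differed from the SRSF2 window at 7 of 21 positions, from the SRSF4 window at 6 and from the SRSF9 window at 7.

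SRSF2 (ENSG00000161547, chr17:76734115-76737333, minus strand) encodes the SR protein SC35. Its site, at position 76736871, had a score of 0.702 and lay in the coding sequence (CDS), at the middle base of codon 97 of 221. In the Ensembl canonical transcript, which served as the reference transcript of each gene, the A was 461 nt into exon 1 of 3, an exon of 533 nt, and 73 nt from the nearest exon junction. The stop codon began 374 nt downstream. The exon was constitutive here, meaning that all 5 protein-coding transcripts that span the position contain it, and 2 NMD transcripts contain it as well. The exon held 6 DRACH motifs, and the nearest unlisted one, a GGACC, was 22 nt away.

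SRSF4 (ENSG00000116350, chr1:29147743-29181900, minus strand) encodes SRp75, the SR protein with the longest arginine and serine-rich domain of its close relatives. Its site, at position 29147899, had the lowest score of the 3 (0.669). It was the only member site in a 3' UTR, 513 nt after the start of the stop codon and 156 nt before the transcript end, in exon 6 of 6 (1484 nt). The exon counted as constitutive, but this rested on 1 protein-coding transcript that spans the position. The A was also exonic in 1 NMD transcript and 1 retained-intron transcript. An unlisted GGACT lay only 66 nt upstream in the same 3' UTR, in a window of 23.8% GC. That neighbour is shown because its pentamer is the one most often listed, while the listed site beside it is an AAACT, of which 0.728% were listed over all protein-coding genes.
SRSF4, unlisted, chr1:29147955-29147975, minus strand: atatttttGGACTtaacaaag

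SRSF9 (ENSG00000111786, chr12:120461672-120495946, minus strand) encodes SRp30c, a close relative of SRSF1. Its site, at position 120465711, had the highest score of the 3 (0.831). It lay in the CDS at the first base of codon 89 of 221, in exon 2 of 4. That exon measures 161 nt, and the A was 77 nt from its start, 77 nt from the nearest junction and 399 nt before the stop codon. The exon was alternative, present in 4 of the 5 protein-coding transcripts that span it and in 5 NMD transcripts and 1 retained-intron transcript. It was the only DRACH motif of its exon, and the next one in the transcript, a GGACC, was 83 nt away.

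**Figure D1:**
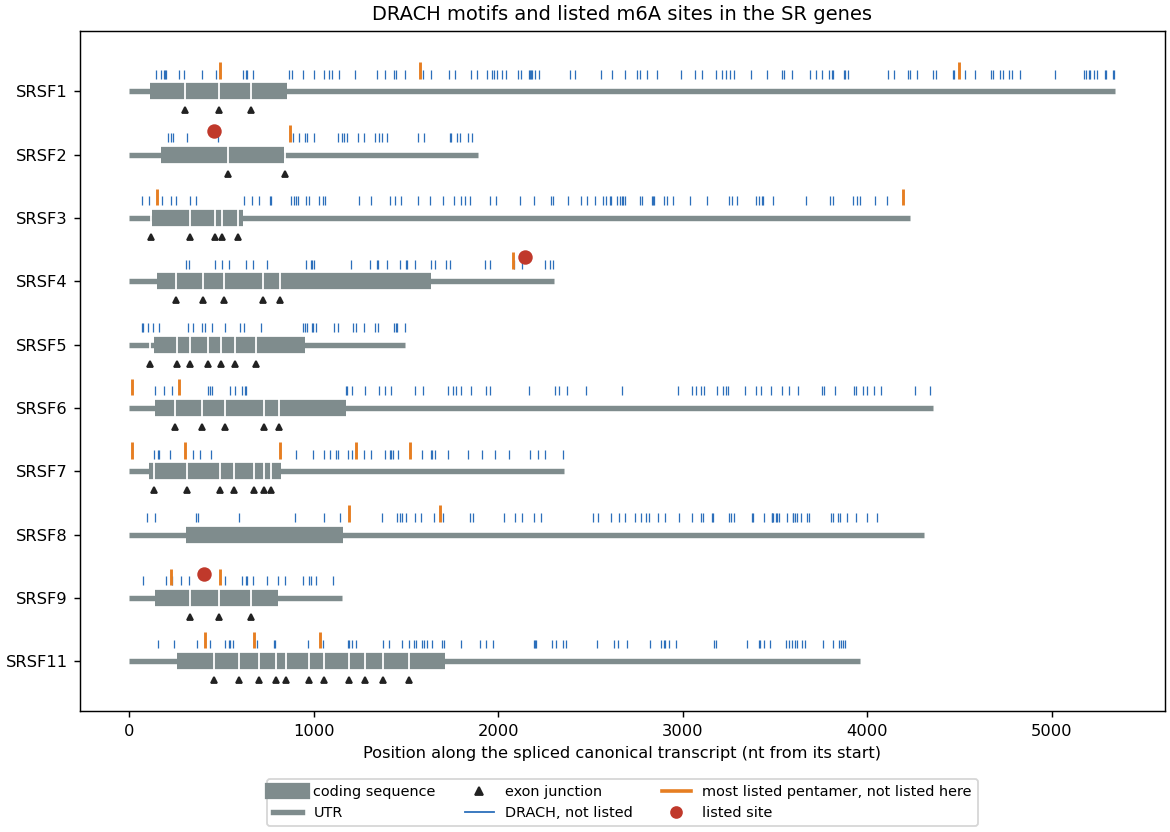
Spliced canonical transcripts of the 10 SR genes, drawn to scale from the transcript start (x axis, nt); thick bars are coding sequence, thin bars UTR, triangles exon junctions, thin ticks DRACH motifs, tall orange ticks unlisted GGACT motifs and red circles listed sites. The circles of SRSF2 and SRSF9 are in the coding sequence and that of SRSF4 near the transcript end, while the long 3' UTRs of SRSF1, SRSF3, SRSF6 and SRSF8 carry many ticks and no circle.

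The scores of the 3 sites fell on both sides of the median of the list. Their median was 0.702 (range 0.669 to 0.831, n = 3), beside a median of 0.754 over all sites (quartiles 0.640 and 0.847). The SRSF2 score was at the 37.5th percentile of all sites and the 19.8th of GGACT sites, whose median was 0.833. The SRSF4 score was at the 30.6th percentile of all sites and the 20.8th of AAACT sites, whose median was 0.793. The SRSF9 score was at the 70.6th percentile of all sites and the 49.5th of GGACT sites. The inputs of the classifier are the 21 nt around the A, the transcript region, the peak strength relative to its transcript and C-to-T changes in reads. The score is a prediction that a site is methylated, and how often the site is methylated was not measured.

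**Figure D2:**
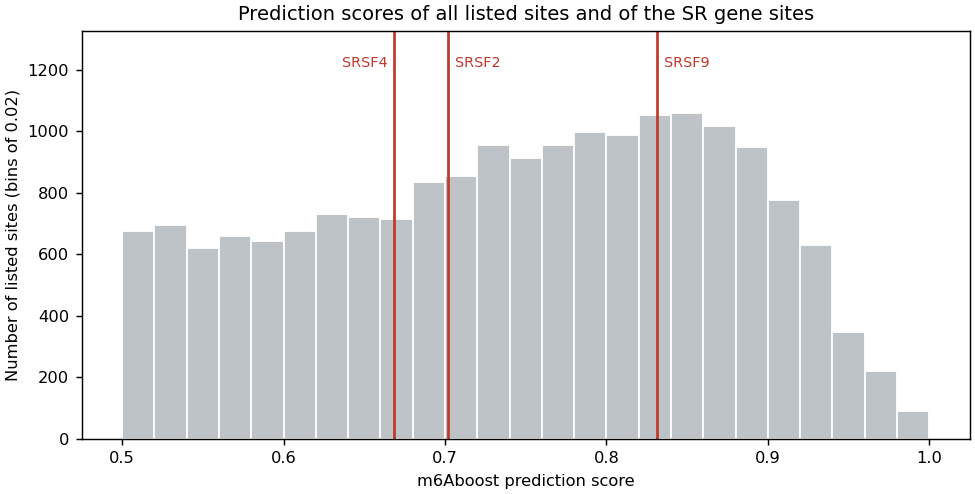
Histogram of the prediction scores of all 18789 listed sites (x axis, score; y axis, number of sites in bins of 0.02), with red lines at the scores of the SR gene sites. SRSF4 (0.669) and SRSF2 (0.702) fall below the median of the list, 0.754, and SRSF9 (0.831) above it.

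A listed site was found in 3 of 10 members (6.67 to 65.2%), beside 20.2% of all 20033 protein-coding genes, so the family was near the background at this number of genes. All intervals given in parentheses after a share are exact 95% Clopper-Pearson intervals. They cover the counting of genes or motifs only, not variation between cultures. Each member with a site had exactly 1, as did 20.5% (19.2 to 21.8) of the 4039 protein-coding genes with any site.

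Motif by motif, the canonical transcripts of the 10 genes held 552 DRACH motifs in their exons, of which 3 were listed (0.543%, 0.112 to 1.58). Over all protein-coding genes 1.18% of DRACH motifs were listed, which lies within that interval, and over the 3868 genes with an exonic site 7.55% were listed. Here and below, genes with an exonic site were chosen for holding a listed site, which raises their share, while the members include 7 without. The 3 members with a site held 85 DRACH motifs, 3 of them listed, and 6 GGACT motifs, 2 of them listed. For GGACT, 2 of 23 motifs of the members were listed (8.70%, 1.07 to 28.0), beside 5.61% over all protein-coding genes and 26.5% over genes with an exonic site. Only 1 of the members' 529 other DRACH motifs was listed (0.189%, 0.00479 to 1.05), beside 0.947% over all genes. The members' 30 GAACT, 29 AGACT, 24 GGACC and 21 GGACA motifs, chosen for mention after their values were seen, were unlisted. Over all protein-coding genes 2.48%, 2.46%, 2.40% and 2.75% of these were listed, so few or no listed sites among that many motifs is near the background.

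By region, 1 of the 3 sites was in a 3' UTR (33.3%, 0.840 to 90.6). That interval holds 54.8%, the 3' UTR share of the 17562 listed sites that were placed by region. The 3' UTR held 74.1% of the members' DRACH motifs, against 46.5% over all protein-coding genes. Of these 409 motifs only the SRSF4 one was listed (0.244%, 0.00619 to 1.35), beside 1.40% over all genes, a value just above that interval. The CDS held 129 motifs, of which 2 were listed (1.55%, 0.188 to 5.49), beside 1.02%. Within 200 nt of the stop codon the members had 64 motifs and no listed site, and 3.60% of such motifs were listed over all genes, so 64 motifs are too few to set the members apart. Of the 17562 sites placed by region, 34.5% lay within 200 nt of the stop codon. A window of 400 nt took in 2 of the 3 member sites (66.7%, 9.43 to 99.2), those of SRSF2 and SRSF9. The share of all sites within 400 nt was not computed, so nothing is read from this.

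Both coding sites lay within 100 nt of an exon junction, as did 92 of the members' 129 coding motifs. Over all protein-coding genes 2056 of the 7059 listed coding motifs lay this close to a junction. With 2 sites, nothing is read from their place. Of the members' 92 coding motifs this close to a junction 2 were listed (2.17%, 0.264 to 7.63), beside 0.428% over all protein-coding genes and 2.42% over genes with an exonic site. The members had 37 other coding motifs, 6 in the single-exon gene SRSF8 and the rest farther than 100 nt from a junction. None of these was listed, and 2.40% were listed over all genes, where genes without a junction are counted in the same way. The sites in SRSF2 and SRSF9 are 2 of the 11 coding GGACT motifs of the family within 100 nt of a junction, and they are the pair farthest from one, at 73 and 77 nt. The other 9 lay 2 to 53 nt from a junction. Over all protein-coding genes the listed share of coding GGACT was 1.90% at 1 to 25 nt, 1.96% at 26 to 50 nt, 2.72% at 51 to 75 nt, 5.82% at 76 to 100 nt and 10.0% farther away or without a junction. The single coding GGACT of the family beyond 100 nt, in exon 1 of SRSF9 at 103 nt, was not listed. The part of junction distance in which motifs of these genes were listed was not tested.

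**Figure D3:**
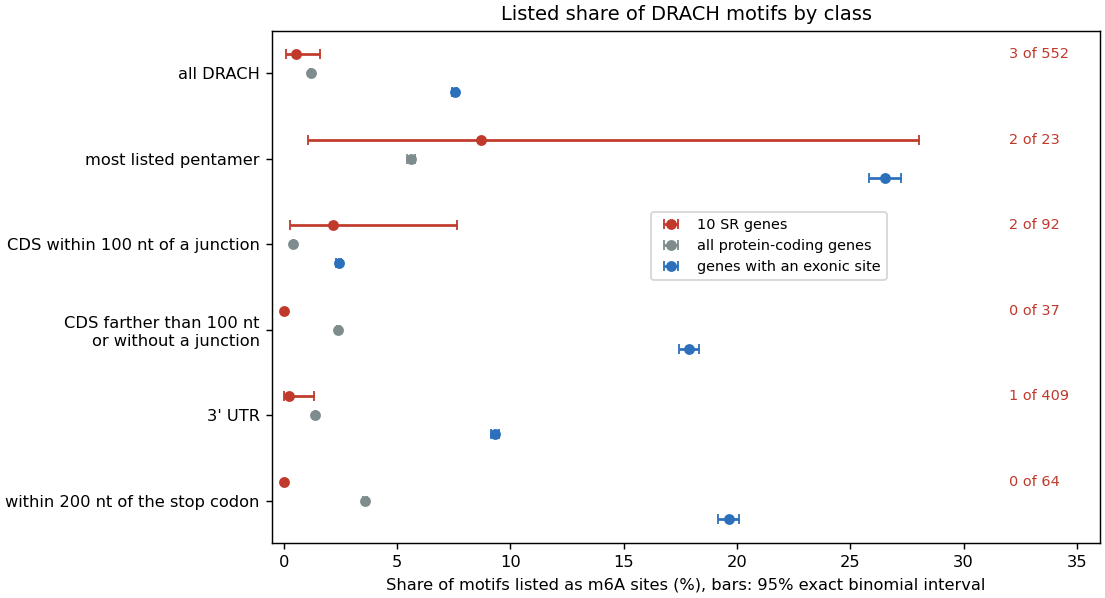
Share of DRACH motifs that are listed (x axis, percent), by class of motif, for the 10 SR genes (red, with counts at the right), all protein-coding genes (grey) and genes with an exonic site (blue); the most listed pentamer is GGACT, and bars are exact 95% intervals, left out at a count of 0. The red points are at 0 for coding motifs far from or without a junction and for motifs near the stop codon, and at 2.17% for coding motifs near a junction.

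The 7 members without a site held most of the motifs of the family. Their canonical transcripts held 467 of the 552 DRACH motifs, 366 of them in the 3' UTR, and 17 of the 23 GGACT motifs. Within 200 nt of the stop codon they held 40 motifs, and the 3 members with a site held 24. The part of motif number in which members had a site was not tested. Members with a site did not stand out by more motifs: SRSF9, with 21, and SRSF2, with 30, had the fewest of all 10.

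SRSF1 (chr17:58000919-58007346, minus strand), the founding member of the family, had the longest transcript, 5343 nt, and the most motifs. Its 3' UTR of 4487 nt held 96 unlisted DRACH motifs, among them GGACT at 722 and 3644 nt after the start of the stop codon. Its CDS held 14, all unlisted.

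SRSF3 (chr6:36594353-36605600, plus strand), the smallest SR protein and an adaptor for mRNA export, had 80 unlisted motifs. Of these 72 were in a 3' UTR of 3611 nt and 6 in the CDS. Its 2 GGACT motifs lay in the CDS, 28 nt from a junction, and 3579 nt after the start of the stop codon. SRSF7 (chr2:38743599-38751494, minus strand), its closest relative, had 5 GGACT motifs, the most of any member, and none was listed. They lay in the 5' UTR, in the CDS at 12 and 51 nt from a junction, and in the 3' UTR at 410 and 701 nt after the start of the stop codon. The motif at 51 nt straddles the end of the reading frame, with its A 2 nt before the stop codon.

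SRSF5 (chr14:69726900-69772005, plus strand) and SRSF6 (chr20:43457893-43466046, plus strand) belong with SRSF4 to the SR proteins with a pair of RNA recognition motifs. SRSF5 had 31 motifs and was the only member with no GGACT in its canonical transcript. SRSF6 had 62 motifs, 48 of them in the 3' UTR, and its GGACT motifs lay in the 5' UTR and in the CDS 24 nt from a junction. SRSF8 (chr11:95066919-95071225, plus strand), a single-exon relative of SRSF2 that arose by retrotransposition, had 71 motifs and no junction that could lie near any of them. SRSF11 (chr1:70205682-70253052, plus strand), the most divergent of the family, had 12 exons and 30 coding motifs, the most of any member. Its 3 GGACT motifs were all coding and 23 to 53 nt from a junction.

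Relatives within the family carry matching GGACT motifs, and neither of the 2 closest pairs was listed. SRSF1 and SRSF9 each have GGACT 2 nt from a junction in an exon 3 of 173 nt (chr17 position 58005972 and chr12 position 120464121, both minus strand), with windows that differ at 5 of 21 positions and run across the junction. SRSF2 and SRSF8 each have GGACT shortly after the stop codon, 38 and 37 nt from its first base, with windows that also differ at 5 of 21 positions. These 4 are shown because they are shared where the listed sites are not.
SRSF1, unlisted, spliced exons 2 and 3: ttgtctctGGACTgcctccaa
SRSF9, unlisted, spliced exons 2 and 3: ttgtttcaGGACTtcctccgt
SRSF2, unlisted, chr17:76735120-76735140, minus strand: taaacggaGGACTtggggaaa
SRSF8, unlisted, chr11:95068100-95068120, plus strand: gtgatggaGGACTtgggggaa

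No site was listed in a poison exon or a retained intron of any member. A poison-type segment was defined as sequence that is intronic in the canonical transcript and exonic in an annotated NMD transcript, and a retained-intron segment as the same for retained-intron transcripts. Exons of the poison type are called poison exons here by this annotation alone, since their stop codons were not searched for. Poison-type segments were annotated in 9 members, all but SRSF8, and covered 4511 bp with 86 DRACH motifs, of which 2 were GGACT. Retained introns were annotated in 8 members, all but SRSF6 and SRSF8, and covered 17896 bp with 329 DRACH motifs, of which 13 were GGACT. Since some sequence is in both classes, the union was 19545 bp with 356 motifs and 0 listed. Inside the canonical exons, constitutive exons held 478 of the members' motifs and 2 of the sites, and alternative exons held 74 motifs and 1 site. The same shares over all genes were not computed, so nothing is read from these counts.

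Listed sites were rare in such segments across the genome too. Over all protein-coding genes 62 of 54083 motifs in poison-type segments (0.115%, 0.0879 to 0.147) and 108 of 308136 in retained introns (0.0350%, 0.0288 to 0.0423) were listed. Even in genes with an exonic site the shares were 0.427% and 0.130%. With 86 and 329 motifs in the members, the list cannot tell their poison exons and retained introns from this background. The levels of NMD and retained-intron transcripts were not measured here.

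The poison exons of the family differed in how many motifs they hold. SRSF1 and SRSF5 had poison-type segments of 237 and 956 bp, with 2 and 13 motifs, and no single exons are described for them. The 456-nt poison exon of SRSF3 (chr6:36599821-36600276) had 7 DRACH motifs and no GGACT, and the 268-nt one of SRSF6 (chr20:43459153-43459420) had 11 and no GGACT. In SRSF7 the 449-nt form (chr2:38748898-38749346) had 7 motifs, again without GGACT. The 104-nt exon of SRSF2 (chr17:76735772-76735875) had 2. SRSF4 had several, of 136 to 228 nt, with 4 to 10 motifs each. SRSF9 had a 90-nt exon with 3. SRSF11 had exons of 62, 109 and 117 nt, with 1, 1 and 3 motifs. GGACT occurred in the 175-nt exon of SRSF4 (chr1:29165890-29166064) and in a 69-nt exon of SRSF7 (chr2:38747062-38747130), both shown because they are the poison-exon motifs of the pentamer most often listed.
SRSF4 poison exon, unlisted, chr1:29165931-29165951, minus strand: ttggctgaGGACTgtcatgtc
SRSF7 poison exon, unlisted, chr2:38747103-38747123, minus strand: agtagctgGGACTgccattgt

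**Figure D4:**
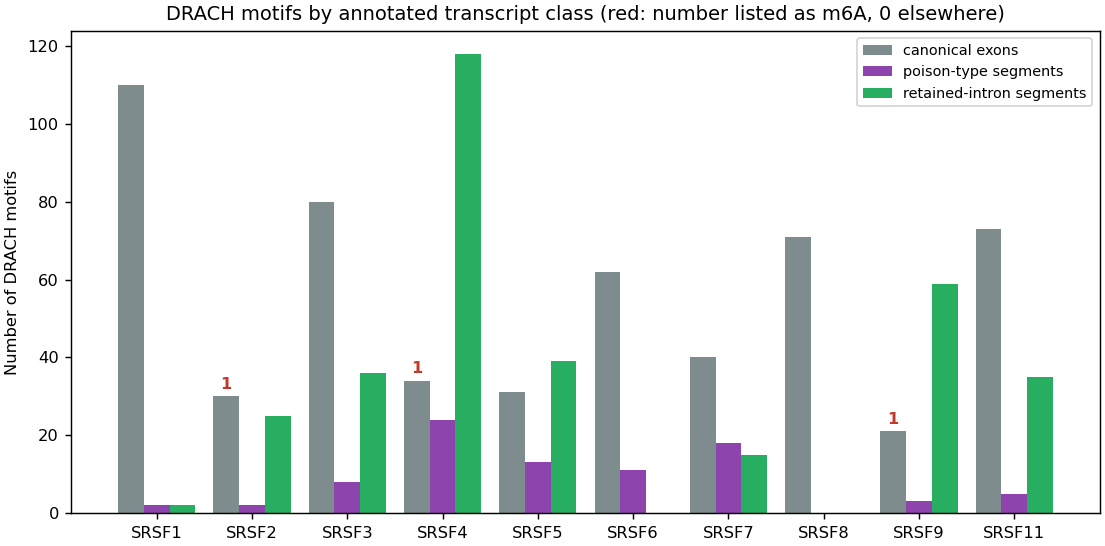
Number of DRACH motifs of each SR gene (y axis) in the exons of the canonical transcript (grey), in poison-type segments (purple) and in retained-intron segments (green), with the number of listed sites in red where it is above 0. Each of the 3 listed sites stands over a grey bar, including in SRSF4, whose retained-intron segments hold 118 motifs.

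GC content was higher in the members with a site, the same direction as over all protein-coding genes. There the median was 57.3% in genes with an exonic site and 46.7% in genes without. The canonical transcripts of SRSF2, SRSF4 and SRSF9 had a GC content of 49.6%, 51.4% and 52.1%, the 3 highest of the family. The 7 members without a site ranged from 38.7% in SRSF1 to 45.1% in SRSF8, with a median of 39.8%. The groups did not overlap, but they hold only 3 and 7 genes. Across all protein-coding genes the share with an exonic site was 1.12% below 40% GC, 3.82% from 40 to 45%, 12.5% from 45 to 50%, 28.6% from 50 to 55%, 37.6% from 55 to 60% and 41.4% above. The family sits at the low end of this range: 5 members were below 40% GC and none was above 55%. The 3' UTR lengths overlapped, at 347 to 1051 nt in the 3 members with a site and 544 to 4487 nt in the others. The part of GC content and 3' UTR length in which members had a site was not tested.

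**Figure D5:**
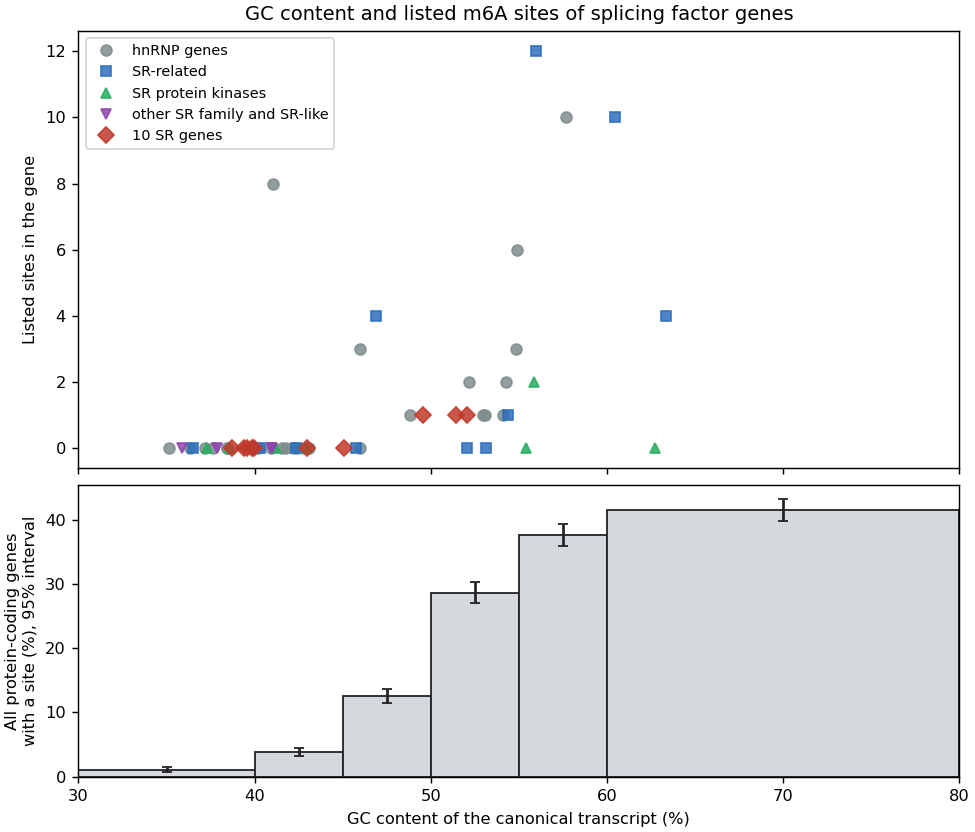
Top, number of listed sites (y axis) against the GC content of the canonical transcript (x axis, percent) for the SR genes (red diamonds) and 4 other groups of splicing genes; bottom, percentage of all protein-coding genes with an exonic site in bins of GC content, with exact 95% intervals, the last bin holding every gene from 60% up. The SR genes with a site lie between 49.6% and 52.1% GC and those without between 38.7% and 45.1%.

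Reads that map to more than one place had been removed, so motifs in repeated sequence could be missed. The 50 nt downstream of a motif could be checked for 539 of the 552 motifs, of which 504 had the 50 nt within 1 exon. For 483 of these they occurred once in the genome, the 3 listed sites included. The other 21 had a further exact match and were in SRSF3 (3), SRSF6 (8), SRSF8 (5) and SRSF9 (5). In SRSF6, 7 of them matched the pseudogene SRSF6P2, and in SRSF8, 2 matched SRSF8BP. For 35 motifs the 50 nt ran across an exon junction, and no match to the unspliced genome was found for them. Shorter or inexact repeats were not searched. No member site lay in an exon of another gene on its strand.

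Other splicing genes were counted in the same way. Of 49 such genes in 4 lists, 17 had a site, 71 in all, and 60 of their 3491 exonic DRACH motifs were listed (1.72%, 1.31 to 2.21). In the SR genes the share was 0.543% (0.112 to 1.58). It lies below the interval of the other genes, although the intervals overlap, and the difference was not tested. The SR-like genes SRSF10, SRSF12, TRA2A and TRA2B had none at 313 motifs. Among the kinases that phosphorylate SR proteins (CLK1 to CLK4, SRPK1 to SRPK3), 1 of 7 had a site, CLK3, with 2. Of 11 SR-related and partner genes, such as SRRM2, SON and U2AF2, 5 had a site, with 25 of 896 motifs listed (2.79%, 1.81 to 4.09). Of 27 hnRNP genes, which encode RNA-binding proteins that often oppose SR proteins in splicing, 11 had a site, with 33 of 1914 motifs listed (1.72%, 1.19 to 2.41). GC content had a median of 54.3% (41.0 to 63.4%) in the 17 genes with a site and 41.0% (35.1 to 62.8%) in the 32 without. These ranges overlapped: HNRNPA0, at 41.0% GC, had 8 sites, and SRPK3, at 62.8%, had none. Ranges over 17 and 32 genes overlap more readily than ranges over 3 and 7, so this does not set the SR genes apart. No member had more than 1 site, while SRRM2 had 12, and U2AF2 and PTBP1 had 10 each.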

How the data were processed

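The processed file used here is a list of m6A sites from 4 miCLIP2 libraries of untreated C643 cells (3 biological replicates). The authors aligned reads to GRCh38 with STAR 2.7.3a and kept unique reads, and removed duplicates by molecular identifiers with UMI-tools 1.0.0; SAMtools 1.9 and bedtools 2.27.1 are also named in the submitters' processing notes. They called peaks with PureCLIP in each replicate, required support from a second replicate, and ran m6Aboost on the peaks at adenosines. The deposited value of each site is its prediction score, a fraction between 0 and 1, pooled over replicates and listed only from about 0.500 up, so an unlisted motif is not shown to be unmethylated. Depth per sample and per site is unknown, and no replicate values exist in the list.

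Sites (0 duplicates, all at an A) were placed with GENCODE release 44 on GRCh38, a later release than the authors used. Canonical transcripts are Ensembl's. DRACH was searched on spliced transcripts. No test was run, because 1 pooled list of 1 group gives no spread between replicates. Shares carry exact Clopper-Pearson intervals, which cover counting error only, and neighbouring motifs of one transcript are not independent. The members, the gene lists and the alternatives were chosen with earlier results of these data known. All 10 members and all their sites are named, and, of the other splicing genes, the 3 with the most sites; further motifs and genes were named after their values were seen. Motif placement and site assignment were tested on simulated sequences. Alternatives changed the score threshold, the transcript, the motif, the stop codon window and the transcripts used. Intervals came from scipy 1.17.1, tables from pandas 2.3.3 and numpy 2.4.6 and figures from matplotlib 3.10.9, under Python 3.11.15.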

Additional observations from a re-analysis of the deposited data

How the results depend on the processing

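The number of sites, their place and the listed share of motifs rest on 3 sites, and several of them shifted under the alternatives. With scores of at least 0.7 the SRSF4 site was lost, which left 2 sites in 2 genes, against 3 in 3, with a median score of 0.767, and the share of sites in the 3' UTR went from 33.3% to 0%. With the longest supported transcript in place of the canonical one, the number of sites outside the exons of the chosen transcript went from 0 to 1. That site is the one in SRSF9, whose longest transcript is a retained-intron transcript without the listed A in an exon. The listed share of DRACH motifs was then 0.314% (2 of 636), and 0.362% with scores of at least 0.7, against 0.543%. Widening the window at the stop codon from 200 to 400 nt took in the coding sites of SRSF2 and SRSF9 (from 0% to 66.7% of sites). Leaving out sites in exons of other genes, loosening DRACH to RAC and keeping transcripts by support level gave the same values. With 3 sites, every share over sites changes by a large step when 1 site is lost. No replicate could be left out because the list is pooled over them. No paired analysis was possible because only 1 group was measured. RNA levels and depth were not given, so an unlisted motif is not a measured absence of m6A.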

Other observations

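The 3 other splicing genes with the most sites differed in where the sites lay. SRRM2, a large nuclear speckle protein rich in serine and arginine, had all 12 sites in its coding sequence, with scores from 0.565 to 0.897. PTBP1, a repressor of exon inclusion, had 7 sites in the 3' UTR and 3 in the coding sequence, with scores from 0.623 to 0.935 and from 0.523 to 0.851. U2AF2, the large subunit of the factor that recognises the polypyrimidine tract before the 3' splice site, had 3 sites in the coding sequence and 2 in the 3' UTR. The other 5 sites of U2AF2, at chr19 positions 55654500 to 55654722 with scores from 0.511 to 0.791, lay upstream of the start of its canonical transcript (position 55655035, 313 nt from the nearest of them), in an exon of 1 coding and 1 NMD transcript that begin earlier.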
